A study of Homo sapiens with 4 samples.

Results

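Gene expression was followed between 24 h and 48 h in HepG2 cells kept in melatonin. HepG2 is an established line of human liver cancer cells that still makes many plasma proteins of the liver. The cells are labelled wild type and were grown in MEM with serum, pyruvate and nonessential amino acids, and every culture of the series received either melatonin at 1 mM or its solvent DMSO for 24 h or 48 h. Each of the 4 conditions was sequenced as 1 library of polyadenylated RNA. The comparison set melatonin 48 h against melatonin 24 h, with 1 library a side, so it has no spread between cultures and no test of time was possible. How often the medium or the melatonin was renewed is not given in the sources used here.

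Genes were taken when they were protein coding, had a gene length of at least 200 bp and reached an FPKM of at least 1 at 24 h or at 48 h with melatonin. FPKM counts fragments relative to the length of the gene in kilobases and to the size of the library. This rule kept 10491 of the 58302 genes listed, of which 19847 are protein coding. Change was measured as log2((48 h FPKM + 1)/(24 h FPKM + 1)), called log2 change here, and a gene was said to have risen or fallen when it passed 2-fold on that scale, which understates the change of low genes. The fold values given for single genes are plain ratios of FPKM. FPKM times gene length gave whole reads in each library, and brackets after an FPKM hold its 95% exact Poisson interval, while brackets after a fold hold the exact interval of the ratio. These intervals cover counting error only.

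The melatonin libraries held 22850046 reads on genes at 24 h and 22820651 at 48 h, and the DMSO libraries held 21616676 and 23086025. Mitochondrial genes took 16.6% of the reads at 24 h and 11.9% at 48 h with melatonin, against 19.96% and 9.77% with DMSO. The samples are labelled HepG2, and levels of cell type markers were read in each library. All 10 hepatocyte markers were present in every library and their FPKM summed to 10562 at 24 h and 8533 at 48 h with melatonin. The 14 markers of fibroblasts, leukocytes, endothelium, muscle, basal epithelium and neuroendocrine cells summed to 1.80 and 2.54, and 4 of them were at 0 in every library. The highest of them in any library was SYP at 0.967. Melatonin itself acts through the receptor genes MTNR1A and MTNR1B in many tissues. MTNR1A had 0 reads at 24 h and 1 read at 48 h with melatonin, and MTNR1B had 0 reads in both melatonin libraries, levels at or under the floor of 3 reads.

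Melatonin is an indole hormone of the pineal gland, and 1 mM is far above the level in blood. Genes that follow the growth state of a culture fall into known programmes. Cell cycle genes are controlled largely through E2F and the MuvB complexes, sterol genes through SREBP2, amino acid response genes through ATF4, and genes such as G6PC and IGFBP1 through FOXO factors that insulin holds back. Each of these programmes was followed here through a list of its genes.

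Between 24 h and 48 h with melatonin, 97 of the 10491 genes changed at least 2-fold, which is 0.925%. Of these, 52 rose (0.496%) and 45 fell (0.429%). The genes that rose included secreted and metabolic liver genes, with TTR, IGFBP1 and G6PC among the 15 largest rises. Those that fell included APOC3, HP and the Wnt inhibitors DKK1 and DKK4. All 97 had 95% Poisson intervals at 24 h and 48 h that did not overlap, as did 50.8% of all genes compared, so intervals that do not overlap were common at this depth. Of the 97 genes, 91 had at least 50 reads in either library. The median log2 change of all genes was -0.06. The balance of rises and falls depended on the scale. With FPKM rescaled to TPM, and the minimum and pseudocount kept at 1, 11613 genes were compared, so the filter changed as well as the scale. The median of all genes moved to 0.19, and 225 genes rose and 42 fell. Rises were then 84.3% of the calls, against 53.6% on the deposited scale. With the sum of reads on genes as library size 72 rose and 30 fell, or 70.6% rises. Of 48 named genes past 2-fold, all kept their direction and 36 stayed past 2-fold in every setting run. The other 12 lost 2-fold in at least 1 setting, among them TM7SF2, ACAT2, FDPS, FADS2, SCD, PFKFB4, AKR1B10, NQO1, VTN, CFI and CLK1.

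**Figure D1:**
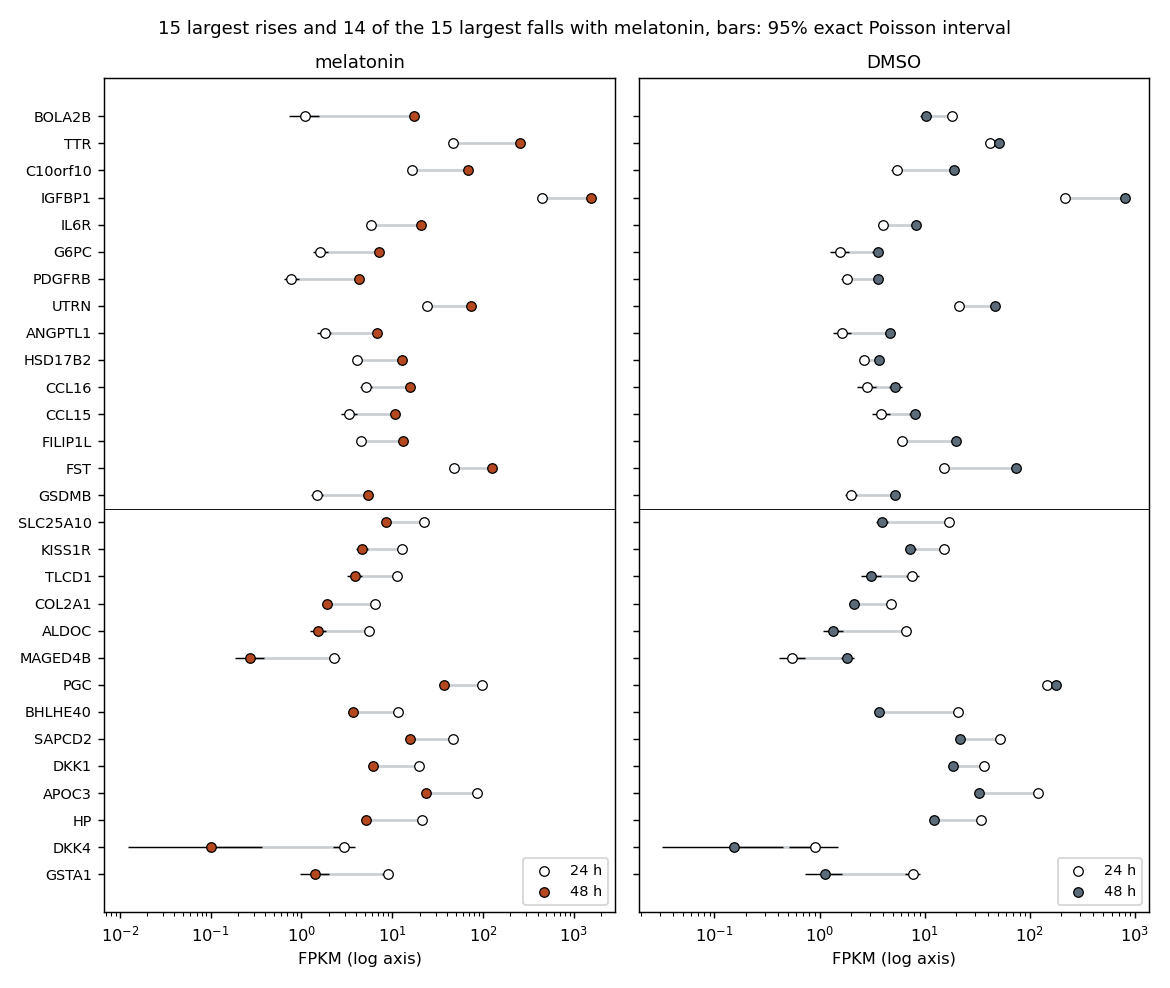
FPKM on a log axis at 24 h (open) and 48 h (filled) of the 15 genes with the largest rises and 14 of the 15 with the largest falls with melatonin, among genes with at least 50 reads in either melatonin library, in the melatonin libraries (left) and the DMSO libraries (right), with bars for the 95% exact Poisson interval. TTR moved from 46.8 to 256 with melatonin and from 41.9 to 50.6 with DMSO, while IGFBP1 rose and APOC3 fell in both panels.

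TTR had the largest rise by log2 change among genes without a near-identical copy, although some lower-expressed genes such as PDGFRB had a larger plain ratio. It encodes transthyretin, the plasma carrier of thyroid hormone and of retinol-binding protein, and lies on chromosome 18 from 31591726 to 31599021. Its FPKM was 46.8 (44.8 to 48.9) at 24 h and 256 (251 to 260) at 48 h with melatonin, a 5.46-fold rise (5.21 to 5.72). With DMSO it was 41.9 at 24 h and 50.6 at 48 h, 1.21-fold (1.13 to 1.28). The melatonin 48 h library therefore stood apart from the other three for this gene.

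IGFBP1, C10orf10 and G6PC were among the 15 largest rises with melatonin, and the first 2 also rose 2-fold with DMSO. IGFBP1, a secreted binding protein of insulin-like growth factors, rose from 450 (443 to 457) to 1557 (1544 to 1570) with melatonin, 3.46-fold (3.398 to 3.522), and from 216 to 811 with DMSO. At each time IGFBP1 was higher with melatonin than with DMSO. C10orf10, also known as DEPP, a FOXO target, rose from 16.3 (15.3 to 17.4) to 67.5 (65.5 to 69.5), 4.13-fold, and with DMSO it was 5.43 and 19.1. G6PC, the catalytic subunit of glucose-6-phosphatase that releases glucose from hepatocytes, rose from 1.62 (1.33 to 1.95) to 7.11 (6.51 to 7.74). With DMSO G6PC was 1.55 at 24 h and 3.58 at 48 h. These 3 genes were the members of the FOXO and insulin-response list that rose, of 19 compared, and 0 fell, where 0.496% of all genes rose and 0.429% fell. The list's median log2 change was 0.13 with melatonin and 0.25 with DMSO, and PCK2, the mitochondrial enzyme that makes phosphoenolpyruvate, stood at -0.73.

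The receptors IL6R and PDGFRB and the secreted proteins CCL16, CCL15 and FST were also among the 15 largest rises. IL6R, the interleukin-6 receptor through which liver cells start the acute phase response, rose from 5.78 to 20.8, 3.60-fold (3.32 to 3.90), and with DMSO it was 3.98 and 8.36. PDGFRB, a receptor of platelet-derived growth factor, rose from 0.774 (0.637 to 0.931) to 4.33 (4.01 to 4.67), and with DMSO it was 1.81 and 3.58. PDGFRB at 24 h was thus lower with melatonin than with DMSO, and at 48 h higher. The chemokines CCL16 and CCL15, which are neighbours on chromosome 17, rose from 5.15 to 15.6 and from 3.35 to 10.6. FST, follistatin, which binds activin, rose from 48.0 to 126 with melatonin, 2.63-fold (2.52 to 2.74), and from 15.2 to 74.0 with DMSO, 4.88-fold (4.53 to 5.26). For FST the interval of the fold with melatonin lay below that with DMSO, and its level was higher with melatonin at both times. The other large rises were ANGPTL1, an angiopoietin-like secreted protein, at 1.80 and 6.86, the steroid dehydrogenase HSD17B2 at 4.08 and 12.9, UTRN, the dystrophin-related protein utrophin, at 24.3 and 73.6, FILIP1L at 4.48 and 13.3, and the gasdermin GSDMB at 1.48 and 5.41. HSD17B2 was at 2.65 and 3.65 with DMSO, so its rise was among those that DMSO did not share at 2-fold.

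Among secreted liver proteins the changes went both ways. Of 30 plasma proteins and apolipoproteins compared, 1 rose (TTR) and 4 fell (HP, APOC3, HPX and VTN), and the list's median log2 change was -0.09 with melatonin and 0.18 with DMSO. Of all genes compared 0.496% rose and 0.429% fell. That median of the plasma protein list turned to 0.17 on the TPM scale and to 0.04 with the sum of reads as library size. APOC3, an inhibitor of triglyceride clearance, fell from 86.6 (82.3 to 91.0) to 23.7 (21.5 to 25.9), 3.66-fold (3.29 to 4.07), and from 119 to 32.8 with DMSO, a 3.64-fold fall. The fall of APOC3 was therefore of the same size with and without melatonin. HP, haptoglobin, which binds free haemoglobin, fell from 21.2 to 5.15 with melatonin and from 34.7 to 12.2 with DMSO. HPX, hemopexin, which binds haem, fell from 2.01 (1.70 to 2.36) to 0.323 (0.211 to 0.473), and with DMSO it was 6.09 and 2.93. HP shares sequence with its neighbour HPR, which was at 9.31 and 4.50 with melatonin, so the split of reads between HP and HPR is uncertain. APOA1, the main protein of high-density lipoprotein, was at 1328 and 691, a log2 change of -0.94 that did not pass 2-fold.

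The complement list held 2 genes that fell with melatonin and changed little with DMSO. Of 22 complement genes compared, 2 fell and 0 rose, where 0.429% of all genes fell. CFI, complement factor I, the protease that inactivates C3b, fell from 34.5 (33.2 to 35.8) to 16.4 (15.5 to 17.3) with melatonin and was 66.5 and 68.4 with DMSO. VTN, vitronectin, which inhibits the terminal complex, fell from 47.3 (45.4 to 49.2) to 21.5 (20.3 to 22.8) and was 66.6 and 62.6 with DMSO. Both genes were already lower with melatonin than with DMSO at 24 h, and the gap was larger at 48 h. C4BPA, a cofactor of CFI, was at 12.3 and 5.89 with melatonin, a log2 change of -0.95, against 15.9 and 18.9 with DMSO. The list's median was -0.20 with melatonin and 0.10 with DMSO, and on the TPM scale the first became 0.05. Of 20 coagulation and fibrinolysis genes compared, 0 rose and 1 fell. The anticoagulant cofactor PROS1 was at 24.9 and 14.2 with melatonin, and at 25.3 and 33.9 with DMSO.

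Genes of proliferation were lower at 48 h as groups, but none of their members passed 2-fold with melatonin. All 41 mitosis and spindle genes had a log2 change below 0, with a median of -0.58 and a range of -0.99 to -0.21, where 40.2% of all genes compared lay above 0. In the DMSO libraries the same 41 genes had a median of -1.07, and 23 of them fell 2-fold, where 2.75% of all genes did. Of 41 DNA replication genes, 40 lay below 0 with melatonin, with a median of -0.37 and 0 past 2-fold, against a median of -0.99 and 19 past 2-fold with DMSO. All 41 replication genes and 38 of the 41 mitosis genes were closer to 0 with melatonin than with DMSO, where 65.5% of the 10750 genes set side by side were. Neither list's median changed sign under any alternative scale run. These are bulk RNA levels, in which fewer cells of a kind and less RNA per cell cannot be told apart.

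The levels show where the libraries parted. CCNA2, cyclin A2, which drives S phase and entry into mitosis, was at 39.2 (37.6 to 40.9) and 19.3 (18.2 to 20.4) with melatonin, and at 38.2 and 12.1 with DMSO. MKI67, the gene of the proliferation antigen Ki-67, was at 29.3 and 15.2 with melatonin, and at 30.6 and 8.68 with DMSO. CCNA2 and MKI67 thus had nearly the same level in both 24 h libraries, and by 48 h the DMSO library was the lower. KIF20A, a kinesin of the spindle midzone, was at 8.46 and 3.97 with melatonin, and CDC20, the activator of the anaphase-promoting complex, at 31.2 and 16.3. With DMSO, KIF20A was at 13.1 and 4.80 and CDC20 at 40.4 and 17.5. In these 2 genes the melatonin value was the lower at both times, but at 48 h the Poisson intervals with melatonin and DMSO overlapped. They were 3.565 to 4.41 and 4.354 to 5.288 for KIF20A, and 15.13 to 17.51 and 16.31 to 18.79 for CDC20. Of the replication genes, RPA3, a subunit of the single-strand binding protein, was at 9.14 and 4.86 with melatonin and at 8.12 and 2.33 with DMSO. POLA1, the catalytic subunit of the polymerase that primes synthesis, was at 6.43 and 3.54 with melatonin and at 6.52 and 2.39 with DMSO. The polymerase delta subunit POLD2 was at 31.8 and 19.5 and the clamp loader subunit RFC2 at 12.98 and 8.09 with melatonin.

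Related lists gave values of the same sign, where 40.2% of all genes compared lay above 0 with melatonin. Of 16 genes that supply nucleotides for DNA, 14 lay below 0 with a median of -0.37, and RRM2, the S phase subunit of ribonucleotide reductase, was at 16.8 and 8.11 with melatonin and at 11.9 and 3.67 with DMSO. Of 22 homologous recombination genes 19 lay below 0, with a median of -0.33 against -0.87 with DMSO. BRCA1 was at 8.09 and 4.52 with melatonin and at 6.22 and 1.70 with DMSO. G1 cyclins and CDK inhibitors were mixed, with 14 of 20 below 0 and a median of -0.20 that became 0.08 on the TPM scale. In that list CDKN2C, an inhibitor of CDK4 and CDK6, was at 8.08 and 4.72 with melatonin, while the p53-induced inhibitor CDKN1A was at 16.2 and 26.6, and at 25.2 and 60.3 with DMSO.

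**Figure D2:**
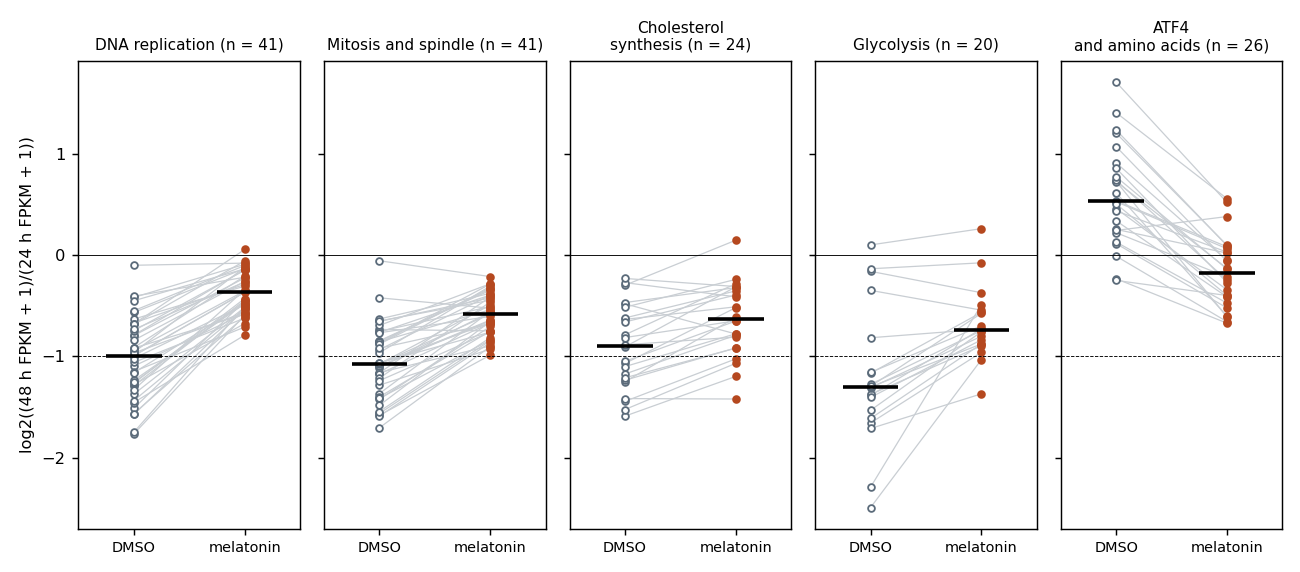
Log2 change of 48 h over 24 h of each compared member of 5 lists with DMSO (open) and with melatonin (filled), members joined by lines, with thick bars for medians and a dashed line at a 2-fold fall. The replication medians were -0.99 with DMSO and -0.37 with melatonin, those of mitosis -1.07 and -0.58, and those of the ATF4 list 0.53 and -0.18.

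Because the proliferation and sterol lists moved together, their promoters were searched for the motifs known for these programmes. A promoter here is the stretch from 250 bases before to 50 bases after a gene's start in RefSeq on GRCh38.p14, found for 8603 of the 10491 genes, and both strands were searched. E2F motifs, with the letters TTTCGCGC, TTTGGCGC or TTTCCCGC, were found in 17 of 34 replication promoters (50%) against 4.88% of all promoters. The cell cycle homology region, written TTTGAA or TTCGAA, was found in 28 of 35 mitosis promoters (80%) against 11.1% of all. CCAAT was found in 29 of 35 mitosis promoters (82.9%) and in 14 of 17 cholesterol promoters (82.4%) against 37.1% of all. The shares describe which genes the lists hold and say nothing of binding in these cells. Shown are promoters of the members with the lowest log2 changes among those of each list that have a promoter in the table, for how the motifs lie in front of these genes, and MKI67, the lowest mitosis member that held a cell cycle homology region. They were chosen after their values were seen. Capitals mark E2F motifs in POLA1, cell cycle homology regions and CCAAT in CCNA2, KIF20A and MKI67, and CCAAT in TM7SF2 and FDPS.
POLA1, chrX:24693668-24693967, plus strand: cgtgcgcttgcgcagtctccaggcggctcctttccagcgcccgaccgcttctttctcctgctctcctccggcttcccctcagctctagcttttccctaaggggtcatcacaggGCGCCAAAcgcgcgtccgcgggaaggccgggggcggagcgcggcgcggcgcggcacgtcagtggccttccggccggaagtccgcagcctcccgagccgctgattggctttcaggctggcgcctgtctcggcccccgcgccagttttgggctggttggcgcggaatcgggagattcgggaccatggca
CCNA2, chr4:121823834-121824133, minus strand: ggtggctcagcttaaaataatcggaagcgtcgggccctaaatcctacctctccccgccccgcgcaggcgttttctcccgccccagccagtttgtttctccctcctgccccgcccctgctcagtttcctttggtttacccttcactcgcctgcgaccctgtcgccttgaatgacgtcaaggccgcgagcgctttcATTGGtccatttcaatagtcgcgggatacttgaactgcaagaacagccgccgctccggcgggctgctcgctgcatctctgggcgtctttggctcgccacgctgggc
KIF20A, chr5:138178862-138179161, plus strand: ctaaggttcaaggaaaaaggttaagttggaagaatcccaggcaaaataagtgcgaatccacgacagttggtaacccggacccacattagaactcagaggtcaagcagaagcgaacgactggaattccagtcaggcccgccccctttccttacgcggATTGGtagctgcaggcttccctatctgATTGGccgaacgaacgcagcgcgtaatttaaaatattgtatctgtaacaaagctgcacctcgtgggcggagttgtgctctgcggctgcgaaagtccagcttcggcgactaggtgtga
MKI67, chr10:128126374-128126673, minus strand: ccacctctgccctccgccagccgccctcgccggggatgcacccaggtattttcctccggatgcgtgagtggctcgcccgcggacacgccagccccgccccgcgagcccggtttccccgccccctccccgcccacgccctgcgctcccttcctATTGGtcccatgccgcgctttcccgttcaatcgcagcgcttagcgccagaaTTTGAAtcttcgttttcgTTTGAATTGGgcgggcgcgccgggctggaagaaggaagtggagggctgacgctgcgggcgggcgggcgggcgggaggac
TM7SF2, chr11:65111622-65111921, plus strand: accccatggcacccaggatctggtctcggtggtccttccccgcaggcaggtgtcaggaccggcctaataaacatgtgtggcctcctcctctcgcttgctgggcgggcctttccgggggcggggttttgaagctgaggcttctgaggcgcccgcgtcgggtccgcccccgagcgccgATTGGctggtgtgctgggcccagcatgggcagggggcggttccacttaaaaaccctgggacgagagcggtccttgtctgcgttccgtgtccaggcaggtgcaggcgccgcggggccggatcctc
FDPS, chr1:155308616-155308915, plus strand: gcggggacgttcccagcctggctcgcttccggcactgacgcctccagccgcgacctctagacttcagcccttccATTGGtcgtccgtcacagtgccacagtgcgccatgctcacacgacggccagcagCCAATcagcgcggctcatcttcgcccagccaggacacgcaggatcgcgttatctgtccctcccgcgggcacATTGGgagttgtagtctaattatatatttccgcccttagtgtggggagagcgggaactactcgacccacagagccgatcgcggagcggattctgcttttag

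The E2F match of POLA1 begins 137 bases before the start and reads on the other strand, and POLD2, the replication gene next in order with a promoter in the table, held 0 such letters. CCNA2 held 1 match, a CCAAT on the other strand 56 bases before the start, and KIF20A held 2, the nearer 67 bases before it. Neither held the letters of the cell cycle homology region searched. MKI67 held 4 matches between 98 and 24 bases before the start. FDPS held 3 CCAAT matches and TM7SF2 held 1, and the sterol letters TCACNCCAC were in neither of them and in 1 of 17 cholesterol promoters (5.88%) against 1.13% of all. The hypoxia core ACGTG was in 8 of 19 glycolysis promoters (42.1%) and in 10 of 18 hypoxia promoters (55.6%) against 27.5% of all. The amino acid response letters TGATGNAA were in 5 of 21 promoters of the ATF4 list (23.8%) against 1.63% of all. Letters for FOXO (GTAAACA) and for the insulin response (CAAAACAA) were added after the rise of IGFBP1, G6PC and C10orf10 had been seen. They were in 1 and 0 of 15 promoters of the FOXO and insulin-response list, against 2.24% and 1.05% of all. With 15 promoters, counts this small cannot be told from those shares. Among the genes that rose 2-fold the E2F letters were in 2 of 41 promoters (4.88%), and among those that fell in 1 of 31 (3.23%).

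Cholesterol synthesis was the list with the largest count of falls with melatonin, together with plasma proteins. Over all genes compared 0.429% fell and 40.2% lay above 0 with melatonin. Of 24 genes of cholesterol synthesis and SREBP2 compared, 4 fell and 0 rose, and 23 lay below 0. The median log2 change was -0.63 with melatonin and -0.90 with DMSO, and 11 of the same genes fell with DMSO. With DMSO 2.75% of all genes compared fell. TM7SF2, a sterol reductase, fell from 38.4 to 16.2 with melatonin and from 22.4 to 6.77 with DMSO, so it was higher with melatonin at both times. ACAT2, which makes acetoacetyl-CoA, fell from 29.9 to 13.7, and FDPS, which makes farnesyl diphosphate, fell from 27.6 to 13.1. With DMSO ACAT2 was at 26.4 and 8.54 and FDPS at 24.0 and 8.18.

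Fatty acid synthesis genes gave a median of -0.47 with melatonin and -0.48 with DMSO over 17 genes, of which 3 fell and 0 rose with melatonin. Of all genes compared, 0.429% fell and 0.496% rose with melatonin. DGAT1, which makes the last step of triglyceride synthesis, fell from 44.4 (43.0 to 45.9) to 18.2 (17.3 to 19.1) with melatonin, and with DMSO it was 35.2 and 19.3. SCD, the desaturase that makes oleate, fell from 477 to 232 with melatonin and from 371 to 158 with DMSO. FADS2, a desaturase of polyunsaturated fatty acids, fell from 8.12 to 3.21, and its neighbour FADS1, which overlaps it, was at 27.5 and 13.8. Fatty acid oxidation and PPARA targets held 0 genes past 2-fold of 18, with PPARGC1A, the coactivator of mitochondrial biogenesis, at 5.54 and 9.44 and FABP1 at 42.9 and 27.1.

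Glycolysis genes had the lowest list median of those described, -0.74 over 20 genes with melatonin, against -1.30 with DMSO. With melatonin 2 fell, 0 rose and 19 lay below 0, and with DMSO 15 fell. Among all genes compared, 0.429% fell with melatonin and 2.75% with DMSO, and 40.2% lay above 0 with melatonin. ALDOC, an aldolase, fell from 5.56 (4.97 to 6.19) to 1.54 (1.25 to 1.87) with melatonin, 3.61-fold (2.88 to 4.56), and from 6.66 to 1.34 with DMSO. PFKFB4, which sets the level of fructose 2,6-bisphosphate, fell from 3.80 to 1.35 with melatonin, 2.82-fold (2.37 to 3.36), and from 10.3 to 1.01 with DMSO, 10.2-fold (8.54 to 12.3). The 48 h levels of PFKFB4 were thus near each other, and its 24 h level was lower with melatonin. The glucose transporter SLC2A3 was at 33.3 and 16.7 with melatonin and at 83.8 and 25.9 with DMSO. The related PFKFB3 was at 2.52 and 1.51 with melatonin and at 7.80 and 0.798 with DMSO. The hypoxia list had a median of -0.29 over 21 genes, with 1 fall. This was DDIT4, an inhibitor of mTORC1, from 60.2 (57.9 to 62.6) to 24.5 (23.1 to 25.99), and from 65.2 to 41.7 with DMSO. BHLHE40, a repressor in the clock and hypoxia responses, fell from 11.7 to 3.68 with melatonin and from 20.8 to 3.71 with DMSO.

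Transcripts of the mitochondrial genome were lower at 48 h, and by less than with DMSO. All 13 lay below 0 with a median of -0.72, and none passed 2-fold, against a median of -1.28 and 10 past 2-fold with DMSO. Of all genes compared, 40.2% lay above 0 with melatonin and 2.75% fell 2-fold with DMSO. MT-CO3, a subunit of cytochrome oxidase, was at 16402 and 9114 with melatonin and at 20523 and 5561 with DMSO. MT-CO1, the most abundant gene compared, was at 35377 and 25023, against 41708 and 19327 with DMSO. The nuclear genes of the respiratory chain had a median of -0.08 over 41 genes, which became 0.18 on the TPM scale and 0.03 with the sum of reads, and 0 passed 2-fold. UQCRB was at 7.74 and 11.2 and CYC1 at 81.1 and 55.9.

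Genes of translation moved in unlike ways. Over all genes compared, 40.2% lay above 0 with melatonin. Of 49 cytoplasmic ribosomal proteins, 47 lay above 0, with a median of 0.20 with melatonin and 0.23 with DMSO, and 0 passed 2-fold. RPL5, a protein of the large subunit, was at 193 and 316 with melatonin and at 203 and 358 with DMSO. Of 29 nucleolar genes of ribosome biogenesis 25 lay below 0, with a median of -0.36 with melatonin and -0.11 with DMSO. Nucleolin, NCL, was at 212 and 146, and the acetyltransferase NAT10 at 29.5 and 19.4. Of 30 proteasome subunits 28 lay below 0 with a median of -0.24, which became 0.03 on the TPM scale. Splicing regulators had a median of -0.01 over 32 genes and 2 rises with melatonin, where 0.496% of all genes rose. SRSF5, an SR protein, rose from 14.01 to 29.7 with melatonin and from 16.9 to 56.0 with DMSO. CLK1, a kinase of SR proteins, rose from 5.46 to 12.1 with melatonin and from 7.26 to 22.8 with DMSO. HNRNPL was at 37.0 and 21.7 with melatonin. The values are gene totals, and isoforms were not analysed here.

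Of all lists, the ATF4 and amino acid response list had the largest median difference between the log2 changes with melatonin and with DMSO, at -0.83. The ATF4 and amino acid response list had a median of -0.18 over 26 genes with melatonin and 0.53 with DMSO. With melatonin 0 of its genes passed 2-fold, and with DMSO 5 rose, where 1.53% of all genes did. For 25 of the 26 genes the log2 change was lower with melatonin than with DMSO. The share of all genes with a lower change with melatonin was not counted. Their median log2 change was -0.06 with melatonin and -0.02 with DMSO. On the TPM scale the melatonin median became 0.08. SLC3A2, which carries large neutral amino acid transporters to the membrane, was at 106 (104 to 108) and 69.0 (67.5 to 70.5) with melatonin, and at 91.0 and 151 with DMSO. TRIB3, a pseudokinase induced by ATF4, was at 72.1 and 47.1 with melatonin, and at 48.5 and 74.8 with DMSO. SLC3A2 and TRIB3 were higher with melatonin at 24 h and lower with melatonin at 48 h. SLC7A5, the transporter partner of SLC3A2, was at 278 and 176 with melatonin and at 269 and 267 with DMSO. The alanyl-tRNA synthetase AARS was at 146 and 91.0 with melatonin and at 103 and 87.7 with DMSO.

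The chaperones of the endoplasmic reticulum and the unfolded protein response had a median of -0.01 over 22 genes with melatonin and 0.58 with DMSO. The log2 change was lower with melatonin for 20 of the 22, and the share over all genes was not counted. Other scales put the melatonin median above 0, at 0.05 when centred, 0.26 with TPM, 0.12 with the sum of reads and 0.04 without mitochondrial genes. XBP1, the transcription factor of that response, was at 151 and 108 with melatonin and at 149 and 165 with DMSO. DNAJB9, a cochaperone of BiP, was at 14.7 and 21.2 with melatonin and at 10.6 and 23.1 with DMSO. Heat shock proteins had a median of 0.00 with melatonin over 19 genes and 0 past 2-fold, with HSPA1A at 23.6 and 37.6. The genes HSPA1A and HSPA1B are near-identical, so their split is uncertain.

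NRF2 targets and antioxidants had a median of -0.40 with melatonin and -0.32 with DMSO over 25 genes, of which 2 fell and 0 rose with melatonin. The share of all genes compared that fell with melatonin was 0.429%. AKR1B10, an aldo-keto reductase high in liver cancer, fell from 41.1 to 17.5 with melatonin and from 48.8 to 23.7 with DMSO. NQO1, a quinone reductase, fell from 153 (150 to 156) to 75.1 (73.1 to 77.1) with melatonin, and with DMSO it was 166 and 132. GPX2, a glutathione peroxidase, was at 163 and 84.3 with melatonin and at 174 and 198 with DMSO. The light chain of ferritin, FTL, was at 5938 and 3234 with melatonin and at 4407 and 2470 with DMSO. The p53 targets had a median of 0.22 in both treatments over 22 genes, of which 0 passed 2-fold with melatonin. With melatonin 17 of them lay above 0, where 40.2% of all genes compared did. GDF15, a secreted stress factor, was at 245 and 430 with melatonin and at 170 and 345 with DMSO.

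Enzymes of drug metabolism changed gene by gene. The 14 cytochrome P450 genes compared had a median of 0.25, with 1 rise, of CYP1A1, the dioxin-inducible monooxygenase, from 5.55 (5.02 to 6.14) to 12.6 (11.8 to 13.4). With DMSO CYP1A1 was 1.24 and 4.18, so it was higher with melatonin at both times. CYP3A5 was at 0.689 and 2.13 with melatonin and at 0.728 and 0.894 with DMSO. Of 17 phase II conjugation genes 2 fell, the glutathione transferases GSTA1 and GSTA2. Over all genes compared 0.496% rose and 0.429% fell with melatonin. GSTA1 went from 8.90 (7.66 to 10.3) to 1.41 (0.967 to 2.00) with melatonin and from 7.75 to 1.12 with DMSO. These paralogs are near-identical and share reads, so they count as a single uncertain locus on chromosome 6.

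DKK1 and DKK4, secreted inhibitors of Wnt signalling, fell with melatonin. DKK1 went from 19.7 (18.5 to 21.1) to 6.21 (5.53 to 6.94), 3.18-fold (2.79 to 3.63), and with DMSO from 36.7 to 18.7. DKK4 had 54 reads at 24 h and 2 at 48 h with melatonin, a plain ratio of 29.6 (7.80 to 250.3), and 15 and 3 reads with DMSO. The Wnt target list, which holds DKK1 as a target, had a median of -0.15 with melatonin and 0.35 with DMSO over 14 genes, and the first became 0.13 on the TPM scale. LGR5, the R-spondin receptor, was at 18.5 and 25.1 with melatonin and at 22.2 and 55.5 with DMSO. NOTUM, a secreted lipase that inactivates Wnt proteins, was higher at 48 h, at 390 and 575 with melatonin and at 261 and 354 with DMSO. Of the 22 YAP and TGF-beta targets compared, CTGF, a matricellular protein, rose from 96.1 to 201 with melatonin and was 83.2 and 116 with DMSO, and 1 gene fell. Over all genes compared 0.496% rose and 0.429% fell with melatonin. IGFBP3, a carrier of insulin-like growth factors, rose from 4.53 (4.11 to 4.99) to 11.2 (10.5 to 11.8) with melatonin and was 3.12 and 2.93 with DMSO, and it was picked after its values were seen.

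The other large falls belonged to no single list. SAPCD2, a regulator of spindle orientation, fell from 46.4 to 15.9 with melatonin and from 52.4 to 21.9 with DMSO. PGC, the precursor of the protease gastricsin, fell from 98.5 (95.5 to 102) to 37.1 (35.3 to 38.9) with melatonin and was 146 and 179 with DMSO. COL2A1, a collagen of cartilage, fell from 6.39 to 1.91, the kisspeptin receptor KISS1R from 12.9 to 4.66, TLCD1 from 11.2 to 3.85, and SLC25A10, the mitochondrial dicarboxylate carrier, from 22.2 to 8.47. All 4 of these were also lower at 48 h with DMSO, at 4.76 and 2.14, 15.2 and 7.33, 7.65 and 3.10, and 17.1 and 3.97. TLCD1 overlaps RPL23A on the opposite strand, which was at 137 and 148 with melatonin, and whether strand was used in counting is not given in the sources used here. MAGED4B, at 2.31 and 0.273, and BOLA2B, at 1.08 and 17.2, have near-identical copies and went the other way with DMSO, at 0.551 and 1.83 and at 18.2 and 10.2. They are reported as uncertain. A further count left out 8 compared genes picked for a near-identical copy: BOLA2B, MAGED4, MAGED4B, GSTA1, GSTA2, HP, HPR and IKBKG. Of the remaining 10483 genes 92 changed, 51 higher and 41 lower. Other genes with close copies, among them HSPA1A, HSPA1B, SERF1B and EIF3CL, stayed in that count.

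**Figure D3:**
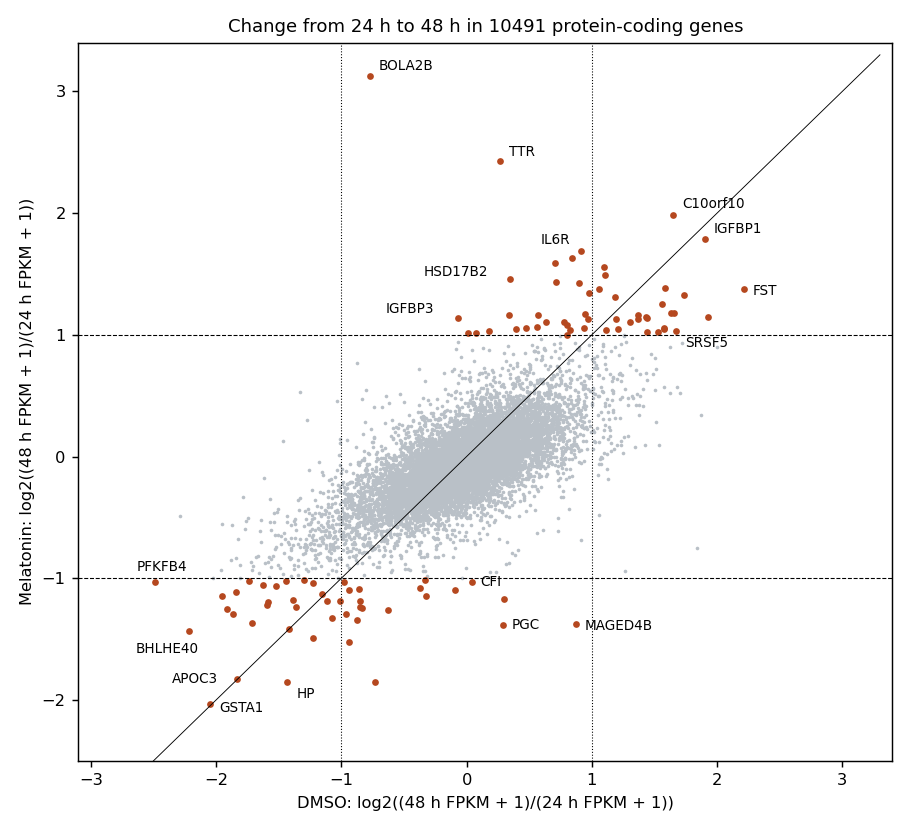
Log2 change of 48 h over 24 h with melatonin against that with DMSO for 10491 protein-coding genes, each point 1 gene, with the 97 genes past 2-fold with melatonin in red. Dashed and dotted lines mark 2-fold and the diagonal marks equal change; 26 of the 52 rises and 26 of the 45 falls also passed 2-fold with DMSO, and no gene passed 2-fold in opposite directions.

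Set beside the DMSO libraries, which share no library with the melatonin comparison, most of the genes that changed with melatonin went the same way. Over the same 10491 genes, 161 rose with DMSO (1.53%) and 288 fell (2.75%). Of the 52 genes that rose with melatonin, 50 had a log2 change above 0 with DMSO and 26 rose 2-fold there, which is 50% of the first list and 16.15% of the 161. Of the 45 that fell with melatonin, 41 lay below 0 with DMSO and 26 fell 2-fold, which is 57.8% of the first list and 9.03% of the 288. The genes that rose with melatonin had a median log2 change of 1.15 with melatonin and 1.02 with DMSO, and those that fell had -1.19 and -1.15, medians chosen by the melatonin values. The genes that rose with DMSO had a median of 1.18 there and 0.54 with melatonin, and those that fell had -1.21 and -0.67. These latter medians were chosen by the DMSO values, which alone would make the second value smaller. Over the 10750 genes that reached an FPKM of 1 in any library, the SD of the log2 change was 0.315 with melatonin and 0.466 with DMSO. Pearson's r between them across genes was 0.68 and Spearman's rho 0.67, and genes are not independent replicates.

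The log2 change was at least 1 higher with melatonin than with DMSO for 56 genes (0.521%) and at least 1 lower for 62 (0.577%). After BOLA2B and TTR, the largest differences upward were in PFKFB3 and PFKFB4, in SLC16A6, a monocarboxylate transporter family member, at 4.25 and 7.95 with melatonin and 2.96 and 1.16 with DMSO, in PIGZ, at 7.94 and 8.78 against 11.8 and 3.61, and in RMI2 and TUBB1. RMI2, a partner of the BLM helicase, was at 20.8 and 16.3 with melatonin and at 21.0 and 5.40 with DMSO. TUBB1 was at 1.04 and 0.812 against 5.24 and 1.03 and overlaps ATP5E on the opposite strand. The largest differences downward, besides MAGED4B and PGC, were in SERF1B and EIF3CL, which have close copies, and in SIK1, SLC6A14, S100P and SLC17A2. Whether reads of SIK1 are shared with a close copy was not examined, so its values are uncertain in the same way. SIK1, a kinase that restrains CREB coactivators, was at 2.16 and 0.968 with melatonin and at 1.81 and 4.29 with DMSO. SLC6A14, an amino acid transporter, was at 16.8 and 11.8 with melatonin and at 14.5 and 31.2 with DMSO. S100P, a calcium-binding protein, was at 91.8 and 117 with melatonin and at 40.6 and 151 with DMSO. SLC17A2 was at 1.31 and 1.46 against 3.03 and 10.7. In these 4 genes the DMSO libraries held the larger change.

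**Figure D4:**
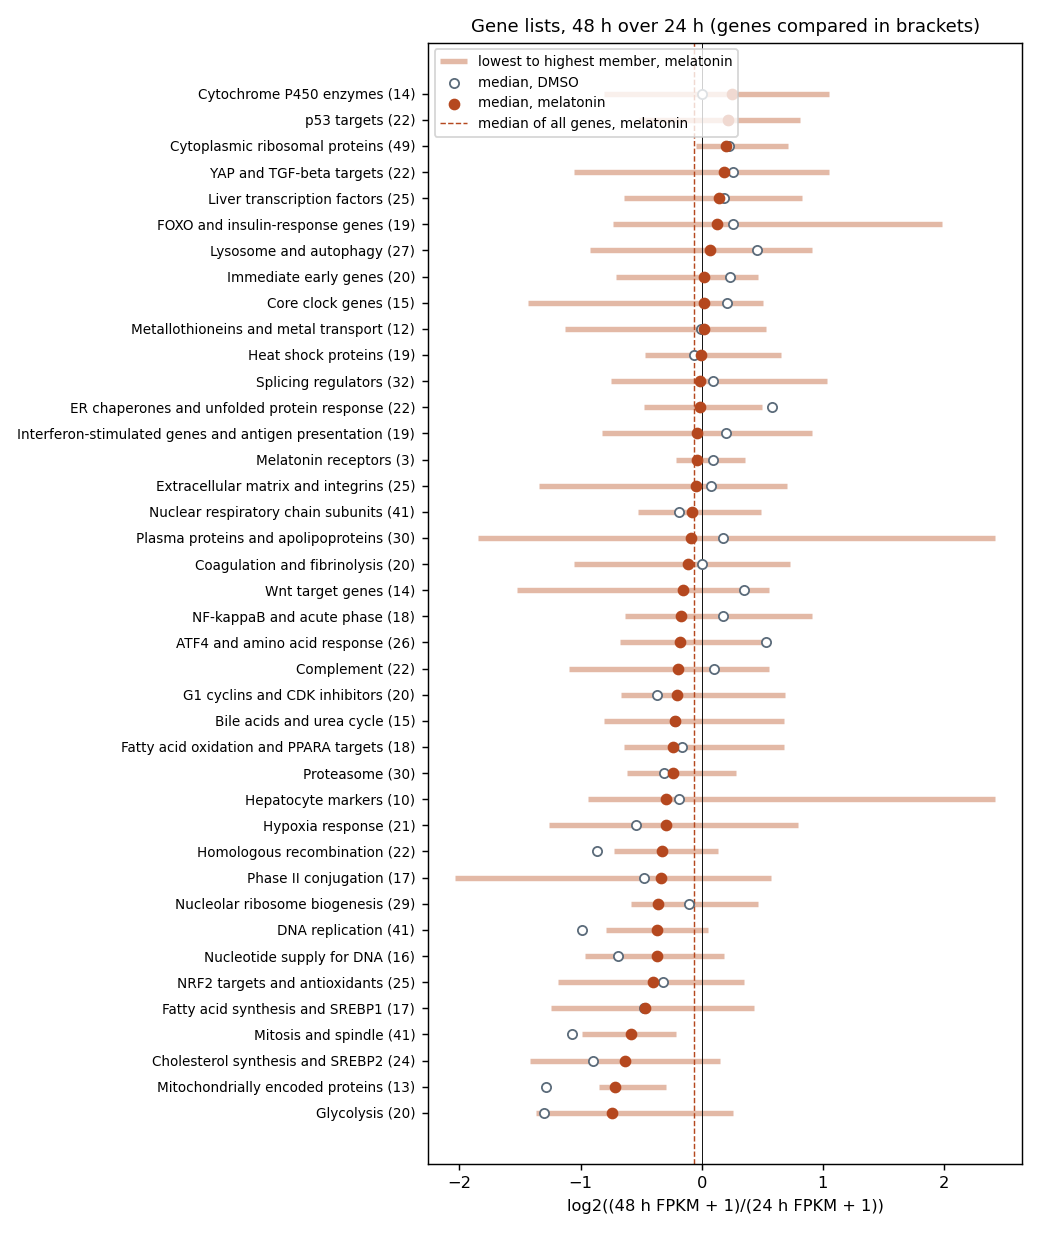
Median log2 change of 48 h over 24 h of each list with melatonin (filled) and with DMSO (open), with bars from the lowest to the highest member with melatonin and a dashed line at the melatonin median of all genes, -0.06. Glycolysis, mitochondrially encoded proteins, cholesterol synthesis and mitosis lie lowest with melatonin, from -0.74 to -0.58, and the ER chaperone and ATF4 medians lie to the left of those with DMSO.

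The remaining lists held few changes past 2-fold with melatonin, where 0.925% of all genes compared changed. Of 15 core clock genes BHLHE40 fell and 0 rose, with PER2 at 5.47 and 3.62 and RORA, a nuclear receptor once proposed to bind melatonin, at 1.05 and 1.64. NQO2, the quinone reductase that binds melatonin, was at 3.45 and 3.32. Immediate early genes had 0 past 2-fold of 20, with EGR1 at 25.03 and 14.9, and the NF-kappaB and acute phase list 0 of 18, with IL1RN, the interleukin-1 receptor antagonist, at 2.33 and 5.27. In that list IKBKG, which encodes NEMO and has a near-identical copy and an overlapping neighbour on the opposite strand, was at 4.93 and 2.83 with melatonin and at 4.28 and 6.77 with DMSO. Interferon-stimulated and antigen presentation genes had 0 of 19, with IFITM3 at 29.2 and 51.8 and ISG15 at 12.9 and 6.84. Liver transcription factors had 0 of 25, with NR2F1 at 7.37 and 13.9 and CEBPA at 22.4 and 13.97, and bile acid and urea cycle genes 0 of 15, with CYP27A1 at 90.4 and 51.4. Lysosome and autophagy genes had 0 of 27, with cathepsin B, CTSB, at 155 and 255 and WIPI1 at 8.42 and 16.7. Of 25 matrix and integrin genes COL2A1 fell, and of 12 metallothionein and metal transport genes MT1G fell, with 46 and 14 reads, too few for the rule on named genes.

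The genes that changed differed in sequence composition from the rest. The median length of the genes that rose was 3426 bp and of those that fell 2621 bp, against 5007 bp over all genes compared. Their median GC contents were 50.8% and 56.4%, against 48.0% over all. After the log2 changes were corrected for GC content and length, 49 genes rose and 42 fell. Whether composition or length had a part in single values was not tested.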

How the data were processed

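RNA of HepG2 cells treated with melatonin or DMSO for 24 h or 48 h was sequenced by the authors, 1 library per condition. By the study's methods, the libraries were made from polyadenylated RNA, the read pairs were placed on the human genome (hg38) with MapSplice and expression was taken from Cufflinks, while the submitters' processing notes list TopHat2 2.0.9, Bowtie2 2.0.6, Cufflinks 2.1.1 and Cuffdiff 2.1.1. The deposited values are FPKM per Ensembl gene, with gene length. The annotation release and the use of strand are not given in the sources used here.

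Reads per gene were recovered, because within a library the product of FPKM and length came in whole steps (100% of values, within 0.05 reads). The library sizes implied by the deposited FPKM were 0.888 of the reads on genes with melatonin at 24 h and 0.973 at 48 h, and how they were set is not stated. A gene of 1 kb with 3 reads had an FPKM of 0.148 and 0.135 in these libraries.

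Log2 changes used a pseudocount of 1. With 1 library a side no test was made. Intervals are exact (95%) for counting error. The comparison, the members and the lists were chosen with earlier results of these data known. Named by rule, among genes with at least 50 reads in either melatonin library, were the 15 largest rises and 15 largest falls, the 4 largest changes of each list, the 8 largest differences from DMSO each way, the 8 most abundant genes and the melatonin receptors. Some named genes are not reported here. Close copies and overlapping neighbours are named beside only some of these genes. Others also overlap a neighbour, among them ANGPTL1 (RALGPS2), C10orf10 (RASSF4), TM7SF2 (VPS51), KIF20A (CDC23 and BRD8) and ACAT2 (SOD2 and TCP1). Promoter sequences are RefSeq's on GRCh38.p14, matched by symbol, and those printed were chosen after values were seen. For GC content the longest transcript in GENCODE 44 was used, known for 99.85% of the genes. Scripts were tested on simulated data. Python 3.11, numpy 2.4.6, pandas 2.3.3, scipy 1.17.1 and matplotlib 3.10.9 were used.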

Additional observations from a re-analysis of the deposited data

Results flagged for a closer look

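Some results went one way with melatonin and the other way with DMSO. With 1 library per condition these differences were not tested. For genes, the log2 change from 24 h to 48 h was -1.39 with melatonin and 0.29 with DMSO for PGC, -1.03 and 0.04 for CFI, -1.38 and 0.87 for MAGED4B, and 3.13 and -0.77 for BOLA2B. MAGED4B and BOLA2B have near-identical copies, and the DMSO change of CFI lies near 0.

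For lists, the medians with melatonin and with DMSO were -0.18 and 0.53 for the ATF4 and amino acid response, -0.012 and 0.58 for ER chaperones and the unfolded protein response, -0.15 and 0.35 for Wnt target genes, and -0.17 and 0.17 for NF-kappaB and acute phase genes. They were -0.20 and 0.10 for complement, -0.0914 and 0.18 for plasma proteins and apolipoproteins, -0.0425 and 0.20 for interferon-stimulated and antigen presentation genes, and -0.11 and 0.01 for coagulation and fibrinolysis. They were -0.0472 and 0.08 for extracellular matrix and integrins, -0.0113 and 0.09 for splicing regulators, -0.0431 and 0.09 for the melatonin receptor list, and 0.0207 and -0.01 for metallothioneins and metal transport. The melatonin medians of all these lists but the last changed sign on the TPM scale, and the last did so without an FPKM minimum. The DMSO medians were not recomputed in these settings, so the difference between treatments is known on the deposited scale only.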

How the results depend on the processing

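Each condition has 1 library, so no library could be left out. No paired analysis was possible because each group has 1 library. With melatonin 97 genes changed, 52 higher and 45 lower, and 449 changed over the same genes with DMSO. With a pseudocount of 0.1 these counts were 232, 124, 108 and 823, at 1.5-fold 709, 260, 449 and 1855, and with all biotypes 191, 121 and 70 with melatonin. With TPM 267 of 11613 genes changed with melatonin, 225 of them higher, and 1310 with DMSO. The count of genes whose log2 changes differed by at least 1 between treatments was 118 and became 352 with a pseudocount of 0.1, 366 with TPM and 357 with all biotypes. The other settings kept these counts within 1.5 times. Among them was leaving out the genes picked for a near-identical copy, which was chosen after the data were seen.

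The melatonin medians of 40 lists were recomputed in up to 12 settings, and the DMSO medians were not. Rescaling to TPM turned the medians of G1 cyclins to 0.0778, fatty acid oxidation to 0.0498, ATF4 to 0.0847, ER chaperones to 0.26, heat shock to 0.27, complement to 0.0526, coagulation to 0.15, plasma proteins to 0.17, phase II to 0.0527, bile acids and urea cycle to 0.19, the nuclear respiratory chain to 0.18, proteasome to 0.0251, NF-kappaB to 0.0695, interferon to 0.22, matrix to 0.24, Wnt to 0.13, splicing to 0.27 and melatonin receptors to 0.20. The sum of reads as library size turned ER chaperones to 0.12, heat shock to 0.12, coagulation to 0.0104, plasma proteins to 0.0408, the respiratory chain to 0.0282, interferon to 0.0888, matrix to 0.0819 and splicing to 0.11. Leaving mitochondrial genes out turned ER chaperones to 0.04, heat shock to 0.0485, interferon to 0.0104, matrix to 0.0048 and splicing to 0.0394. Centring turned the same lists to 0.0522, 0.0611, 0.0217, 0.0169 and 0.0528, and melatonin receptors to 0.0211. Without an FPKM minimum metallothioneins became -0.0348, splicing 0.0016 and melatonin receptors 0.0032. At an FPKM of at least 5 liver transcription factors became -0.0544, and with the GC and length correction the clock list became -0.0018. The causes were not tested. TPM shifted the median of all genes by more than 0.1, to 0.19, and medians of these sizes cannot be read apart from that shift. Depth limits low genes: at 48 h DKK4 rested on 2 reads.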
